A study of Mus musculus with 14 samples.

Results

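Mouse dendritic cells that had been treated with the cathepsin B inhibitor CA074Me were compared with and without tumour necrosis factor alpha (TNF), and the comparison rested on 4 of the series' 14 expression arrays. The arrays were chosen by their labels alone: 2 carried RNA of cells given CA074Me and then TNF, and 2 carried RNA of cells given CA074Me with no further stimulus. All cells had been grown from bone marrow progenitors of BALB/c mice over 8 days in medium with recombinant GM-CSF, a growth factor for myeloid cells, and fed on days 3 and 6. CA074Me was added at 5 µM for 1 h, and TNF followed at 500 U/mL in the stimulated cultures. The 2 arrays of a group came from independent experiments, so the stimulated and the unstimulated array of the same experiment formed a pair. The same TNF comparison in cells given 0.01% DMSO, the solvent control, used another 4 arrays of the same experiments and served as the reference for the response without the inhibitor. The sources used here give neither the time from TNF to harvest nor whether marrow of several mice was pooled. The p-values measure the spread among all 14 arrays, pooled over the 7 groups of the series after the level of each experiment was taken out. Other groups in that fit had CpG at 25 µg/mL after solvent. They also included the cathepsin L inhibitor CLIK148 at 5 µM, alone or followed by CpG at 25 µg/mL.

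TNF binds 2 receptors, TNFR1 (Tnfrsf1a) and TNFR2 (Tnfrsf1b), which recruit TRAF adaptors and cIAP ubiquitin ligases and activate the IkB kinase complex. The kinase complex releases NF-kB dimers from IkB proteins, and NF-kB induces both target genes and its own inhibitors, among them A20 (Tnfaip3) and IkB alpha (Nfkbia). In dendritic cells this programme accompanies maturation, in which antigen uptake receptors give way to costimulatory molecules, chemokines and migration. Cathepsin B is a lysosomal cysteine protease that degrades internalised and endogenous protein, and CA074Me is a cell-permeable inhibitor of it. The submitters' design paired CA074Me with TNF, so the comparison asks how cells with the inhibitor on board answer this cytokine.

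Expression values are on a log2 scale, so a difference of 1 is a 2-fold change, and levels of different probe sets cannot be set against each other. The array named 18193 genes by at least 1 unshared probe set, and 12172 of them lay above the overall median of 7.52 on 2 arrays or more and were tested. Differences come from limma, fitted to all 14 arrays with the experiment as a block. A gene is said to have risen or fallen where its Benjamini-Hochberg adjusted p-value, taken over all 12172 genes, was under 0.05, and brackets after a change hold its 95% confidence interval. Array medians lay between 7.48 and 7.54 over the series, and the profiles of the 2 experiments correlated with r of 0.9912 without a stimulus and 0.9905 with TNF after CA074Me. On the 4 CA074Me arrays the 3' probe set of Gapdh differed from the 5' probe set by -0.046 to 0.002, and that of Actb by 0.232 to 0.312.

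The cell type label was checked against marker genes. Among the dendritic cell markers the antigen presentation genes were bright on all 4 arrays, with H2-Ab1 between 14.60 and 14.77 and Cd74 between 14.11 and 14.42. Itgax, the CD11c integrin chain, lay between 11.17 and 12.05 and Zbtb46, a transcription factor of conventional dendritic cells, between 10.08 and 10.73. Other dendritic cell markers were dim: Flt3 lay between 8.41 and 9.0 and Siglech between 7.75 and 7.91. Xcr1 lay between 6.89 and 7.05, below the overall median on all 4 arrays. Some macrophage and granulocyte genes were bright as well: Csf1r lay between 14.03 and 14.63, and S100a8 between 14.70 and 15.10. Others were dimmer: the macrophage marker Mertk lay between 7.965 and 8.93, and the granulocyte marker Elane between 8.63 and 8.82. Of the lymphocyte markers Nkg7, between 7.40 and 7.43, and Cd3e, between 7.65 and 7.86, stayed near the overall median. Ms4a1 was at 7.11 and 8.37 without a stimulus and 7.805 and 8.40 with TNF in experiments 1 and 2. The mean over the 4 tested mast cell and basophil markers was 9.985 and 10.064 without a stimulus and 10.225 and 10.252 with TNF. The mean over the 7 macrophage markers was 12.09 and 11.54 without a stimulus and 11.68 and 11.24 with TNF, for experiments 1 and 2, and that over the 7 granulocyte markers was 12.63 and 12.38 without and 12.68 and 12.42 with TNF. The mean over the 9 tested dendritic cell markers was 10.96 and 10.73 without and 10.68 and 10.52 with TNF. In such bulk samples a change in the number of cells of a type and a change in RNA per cell cannot be told apart.

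TNF changed 1355 genes in CA074Me-treated cells, 11.1% of those tested, of which 605 (4.97%) rose and 750 (6.16%) fell. Most changes were small: 851 of the 1355 were under 1.5-fold, the median size was 0.49, and 133 genes reached 2-fold, 70 of them upward and 63 downward. All 1355 moved the same way in both experiments, which their choice by the mean of the same 2 changes favours. The share of all genes that did so was not counted. For 1177 of the 1355 the stimulated arrays did not overlap the unstimulated ones, as was true of 5463 of all 12172 genes. The changes of the 2 experiments correlated with r = 0.831 across the 12172 genes, which are not independent replicates. The number of calls depended on single arrays: it was 235 without the unstimulated array of experiment 1, 830 without that of experiment 2, 592 without the TNF array of experiment 1 and 235 without that of experiment 2. With the pairing of experiments ignored it was 159, and all 159 were among the 1355. The balance of directions moved as well: 44.6% of the calls were upward as reported, 67.9% with the pairing ignored, 58.7% and 57.0% without the unstimulated array of experiment 1 and the TNF array of experiment 2, and 35.4% under reference-gene scaling. The direction of the majority thus differed between settings. With the CpG and CLIK148 arrays of the series left out of the fit, 2995 genes were called from the remaining 8 arrays. From the 4 CA074Me arrays alone it was 3560. Counts in the fit to 8 arrays are given beside some gene lists. Among the others, that fit called 8 MHC class I genes higher and 1 lower, and 2 MHC class II genes higher and 2 lower. It called 8 lysosomal genes lower and 0 higher, and 9 NRF2 genes and 7 glycolysis and hypoxia genes higher and 0 lower. Of the stress genes it called 6 higher and 4 lower.

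**Figure D1:**
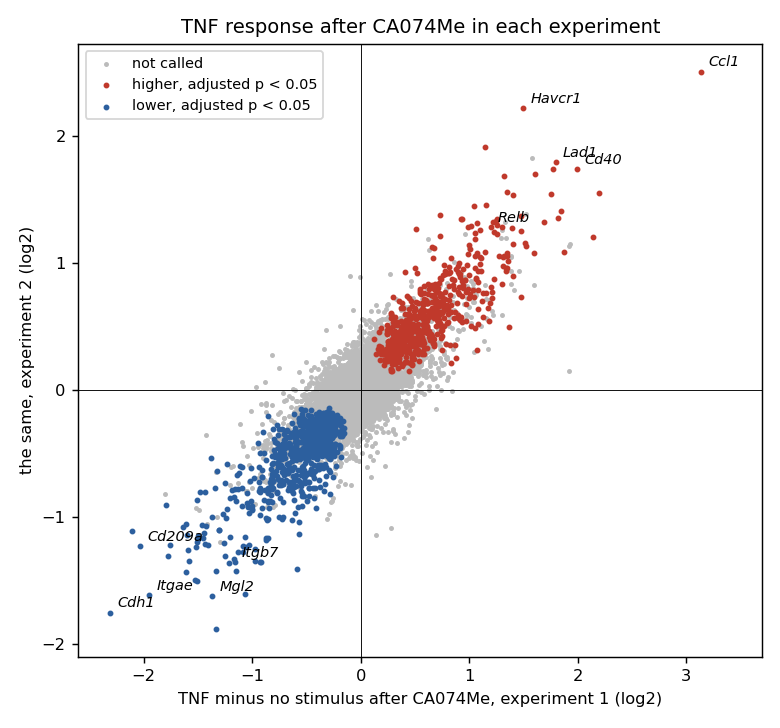
Change with TNF after CA074Me in experiment 1 (horizontal axis, log2) against experiment 2 (vertical axis, log2) for each of the 12172 genes tested, 1 point per gene. Red points are the 605 genes that rose and blue points the 750 that fell at an adjusted p under 0.05; called genes lie at the upper right and the lower left, with Ccl1 farthest up and Cdh1 among the farthest down.

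The largest rise was in Ccl1, a chemokine that attracts cells bearing CCR8. Its level was 8.60 and 8.51 without a stimulus and 11.74 and 11.01 with TNF in experiments 1 and 2, and both stimulated arrays stood far above both unstimulated ones. The change was 2.82 (1.96 to 3.67, adjusted p = 0.00303). Cd40, the receptor for the T cell signal CD40 ligand, was at 10.71 and 11.01 without a stimulus and 12.70 and 12.75 with TNF, a change of 1.87 (1.11 to 2.62, adjusted p = 0.0102). Cd70, the costimulatory ligand of CD27, was at 8.05 and 9.14 without a stimulus and 10.25 and 10.69 with TNF. The groups did not overlap, as for 5463 of all 12172 genes, although the unstimulated Cd70 values differed from each other more than the stimulated ones. Its change was 1.87 (0.998 to 2.74, adjusted p = 0.0176). Havcr1, which encodes the phosphatidylserine receptor TIM-1, went from the dim range of the array to a clear signal, at 7.95 and 7.65 without a stimulus and 9.45 and 9.87 with TNF, a change of 1.86 (1.34 to 2.37, adjusted p = 0.00234).

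Lad1, which encodes the basement membrane linked protein ladinin, was the most even of the large rises: 9.43 and 9.53 without a stimulus and 11.23 and 11.32 with TNF, with a change of 1.79 (1.52 to 2.07, adjusted p = 0.000456). Jag1, a Notch ligand, was at 8.76 and 9.12 without a stimulus and 10.61 and 10.53 with TNF and changed by 1.63 (0.73 to 2.52, adjusted p = 0.0331). The other genes among the 15 largest rises were Cd1d2, Serpinb6b, Nipal1, Tmem39a, Snn, 1110032F04Rik, Nudt17, Gcsam and Dscaml1, with changes from 1.48 for Dscaml1 to 1.76 for Cd1d2. Cd1d2 and Serpinb6b belong to families of near-identical genes whose transcripts a probe set may share, so their values are uncertain. Havcr1, Lad1, Nipal1, Tmem39a, Gcsam and Ccl1 passed the test with any 1 of the 4 arrays left out, with adjusted p of at most 0.0412. The others did not: without the unstimulated array of experiment 1 the adjusted p was 0.113 for Cd40, 0.175 for Cd70 and 0.282 for Jag1, and without the TNF array of experiment 2 it was 0.113, 0.144 and 0.218. For the other 6 of the 15 it reached at most 0.254 without the former array, for Dscaml1. Cd70 and Jag1 also missed the threshold without the TNF array of experiment 1, at 0.0675 and 0.0972.

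NF-kB binds a short degenerate motif, and the reference sequence upstream of the genes was searched for its consensus on either strand, from 250 bases before to 50 bases after each gene's start. A match describes letters, not a bound site. It was found at 12.44% of the 9859 tested genes with a RefSeq promoter entry (1226 genes). A gene with several starts counted if any of them had a match. Of the genes that rose after CA074Me and TNF 15.98% (81 of 507) held a match, and of those that fell 10.41% (61 of 586). Among genes that rose at least 2-fold it was 23.33% (14 of 60), and among those that fell at least 2-fold 4.35% (2 of 46). The upstream sequences of Ccl1, the gene with the largest rise, and of Tnfaip3, the feedback inhibitor A20, are shown as examples with 2 matches each. Other genes that rose held matches too, among them Nfkb2 with 3 and Rel with 2. Another RefSeq start of Tnfaip3, not shown, had 0. The sequences shown are the 250 bases before the start, read 5′ to 3′ on the strand of the gene, from RefSeq on build GRCm38.p6, at chr11:82179813-82180062 (minus strand) for Ccl1 and chr10:19015411-19015660 (minus strand) for Tnfaip3. Capitals mark the matches. The 2 of Ccl1 overlap, starting 196 and 195 bases before the gene's start, and those of Tnfaip3 start 125 and 12 bases before it. The reference is of strain C57BL/6J and the cells were of strain BALB/c.
Ccl1: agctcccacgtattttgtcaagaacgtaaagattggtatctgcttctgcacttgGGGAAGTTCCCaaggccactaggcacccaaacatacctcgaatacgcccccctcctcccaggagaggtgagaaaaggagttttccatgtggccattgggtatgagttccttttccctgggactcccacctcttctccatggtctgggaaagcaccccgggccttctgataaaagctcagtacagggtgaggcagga
Tnfaip3: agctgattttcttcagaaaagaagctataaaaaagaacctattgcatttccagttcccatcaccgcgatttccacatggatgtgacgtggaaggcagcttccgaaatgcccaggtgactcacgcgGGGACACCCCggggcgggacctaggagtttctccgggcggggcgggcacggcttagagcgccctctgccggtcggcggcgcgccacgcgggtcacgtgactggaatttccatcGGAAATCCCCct

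Of the 22 tested members of the TNF receptor and signalling list 9 rose and 0 fell, against 4.97% and 6.16% of all genes, and the list's median change was 0.31 beside -0.019 for all genes. Tnfrsf1b (TNFR2) was at 12.06 and 11.74 without a stimulus and 12.68 and 12.42 with TNF and changed by 0.65 (0.35 to 0.95, adjusted p = 0.0165). Tnfrsf1a (TNFR1) was at 11.57 and 11.26 without a stimulus and 11.35 and 10.82 with TNF, and its change of -0.33 (-0.57 to -0.09, adjusted p = 0.0782) did not pass the test. A difference between the 2 receptors was not tested. Tnf itself was at 10.43 and 9.97 without a stimulus and 11.40 and 10.56 with TNF, higher in both experiments by 0.97 and 0.59 but not past the test, with 0.78 (-0.31 to 1.88, adjusted p = 0.346). Fitted to the 8 CA074Me and solvent arrays alone, Tnf and Tnfrsf1a passed, at adjusted p of 0.030 and 0.033.

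Adaptors and brakes downstream of the receptors made up the rest of the called members. Traf1, an adaptor that NF-kB itself induces, was at 11.08 and 11.41 without a stimulus and 12.33 and 12.74 with TNF and changed by 1.29 (0.92 to 1.65, adjusted p = 0.00242). The ubiquitin ligase genes Birc2 (cIAP1) and Birc3 (cIAP2) rose by 0.81 and 0.60. Tnfaip3 was at 11.55 and 11.88 without a stimulus and 12.78 and 12.76 with TNF, both stimulated arrays above both unstimulated ones, and changed by 1.05 (0.61 to 1.49, adjusted p = 0.012), while Tnip1, which encodes a partner of A20, rose by 0.63. Cflar, the caspase-8 inhibitor FLIP, changed by 0.97 (0.53 to 1.41, adjusted p = 0.0161), and Traf2 and Ikbkb rose by 0.34 and 0.37. Casp8 itself stood at -0.16, Tradd at -0.06 and Map3k7, the kinase TAK1, at -0.11, none of them called. Traf1 and Birc2 passed with any single array left out. Tnfrsf1b, Tnfaip3 and Cflar lost the call without the unstimulated array of experiment 1 (0.149, 0.109 and 0.164) or without the TNF array of experiment 2 (0.151, 0.117 and 0.151), and Tnfrsf1b also without the unstimulated array of experiment 2 (0.053). In the same fits the list's called members numbered 2 and 2.

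NF-kB subunits and IkB proteins formed the list with the highest share of calls, 90.0% beside 11.1% of all genes: 9 of 10 tested members rose, 0 fell, and the median change was 0.64. Relb, a subunit of the non-canonical pathway, had the smallest adjusted p of the list. Its level was 11.002 and 10.92 without a stimulus and 12.20 and 12.20 with TNF, nearly the same in both cultures of a group, and the change was 1.24 (1.07 to 1.40, adjusted p = 0.000258). Nfkb2, which encodes the p100 precursor that is processed to the partner of RelB, was at 9.57 and 9.53 without a stimulus and 10.38 and 10.46 with TNF and changed by 0.87 (0.66 to 1.09, adjusted p = 0.00137). Among the canonical subunits, Rel was at 9.58 and 9.97 without a stimulus and 10.39 and 10.89 with TNF and changed by 0.86 (0.42 to 1.30, adjusted p = 0.0256), and Rela rose by 0.39.

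The inhibitory side of the family rose with the subunits. Nfkbia was at 14.23 and 14.03 without a stimulus and 14.66 and 14.42 with TNF and changed by 0.41 (0.27 to 0.56, adjusted p = 0.00572). Bcl3, an IkB protein that acts in the nucleus, was at 10.25 and 10.08 without a stimulus and 11.06 and 10.997 with TNF and changed by 0.86 (0.67 to 1.06, adjusted p = 0.00104). Nfkbib, Nfkbid and Nfkbie rose by 0.55, 0.42 and 0.52. Nfkbiz, at 0.73 with an adjusted p of 0.118, was the member not called. Relb, Nfkb2 and Bcl3 passed with any single array left out, at adjusted p of at most 0.026. Rel and Nfkbia lost the call without the unstimulated array of experiment 1 (0.229 and 0.069) or without the TNF array of experiment 2 (0.216 and 0.063), and in each of these fits 4 members of the list were called. Nfkb1 had no probe set of its own in the annotation used here.

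Of 23 tested genes of dendritic cell maturation 16 rose and 0 fell, 69.6% beside 11.1% of all genes, with a median change of 0.67. Besides Cd40 and Cd70 they included further ligands and receptors that act on T cells: Tnfsf9 (4-1BB ligand) rose by 0.96, Icosl (ICOS ligand) by 0.53, and the PD-1 ligands Cd274 and Pdcd1lg2 by 0.66 and 0.65. Cd83, a surface marker of mature dendritic cells, was at 12.27 and 12.94 without a stimulus and 13.45 and 13.58 with TNF and rose by 0.91. Icam1, the adhesion ligand of LFA-1, was at 12.21 and 12.09 without a stimulus and 13.20 and 12.88 with TNF and rose by 0.89. The stimulated cultures were above the unstimulated ones for both genes. Groups without overlap, in either direction, were found for 5463 of all 12172 genes.

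The classical costimulatory pair, Cd80 and Cd86, did not pass the test. Cd86 was at 11.45 and 12.81 without a stimulus and 11.43 and 12.92 with TNF, so that the gap between experiments exceeded any difference with TNF, and its change was 0.04 with an adjusted p of 0.939. Cd80 was at 9.59 and 10.92 without a stimulus and 10.12 and 11.04 with TNF, with a change of 0.32 that did not pass (adjusted p = 0.42). Ccr7, the receptor that guides mature dendritic cells to lymph nodes, was at 12.39 and 13.30 without a stimulus and 13.30 and 13.76 with TNF and changed by 0.68 (adjusted p = 0.153). Unstimulated cultures of experiment 2 were brighter than those of experiment 1 for each of the 3 genes. In the fit to 8 arrays Ccr7 passed, at an adjusted p of 0.0098, and Cd80 and Cd86 were at 0.122 and 0.707. The number of called maturation genes was 2 without the unstimulated array of experiment 1, 13 without that of experiment 2, 6 without the TNF array of experiment 1 and 4 without that of experiment 2.

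**Figure D2:**
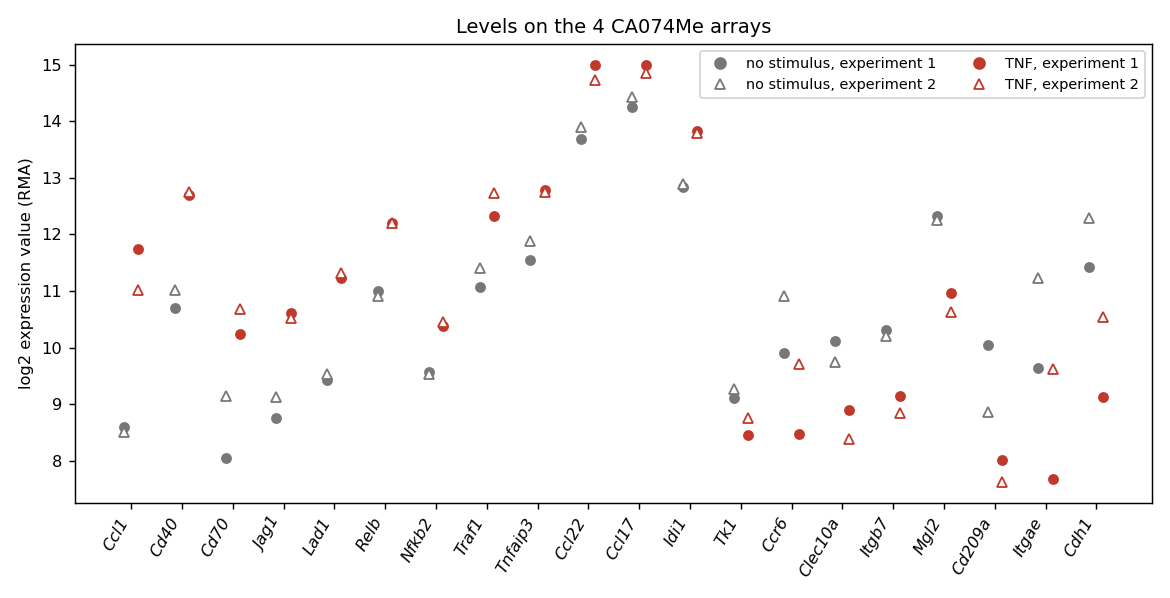
Log2 expression values (vertical axis) of named genes on each of the 4 CA074Me arrays. Grey points are cultures without a stimulus and red points cultures with TNF, circles for experiment 1 and open triangles for experiment 2; the genes from Ccl1 to Idi1 rose and those from Tk1 to Cdh1 fell.

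Among 24 tested chemokine genes 5 rose and 0 fell, 20.8% beside 11.1% of all genes, and their median change was 0.52. Ccl1, described above, led them, and Cxcl5 rose by 0.51. Ccl22, a ligand of CCR4, was at 13.69 and 13.90 without a stimulus and 14.99 and 14.73 with TNF and changed by 1.07 (0.66 to 1.47, adjusted p = 0.00784). Ccl17, the other CCR4 ligand, was bright before the stimulus too, at 14.24 and 14.43 without a stimulus and 14.99 and 14.85 with TNF, and changed by 0.59 (0.36 to 0.81, adjusted p = 0.0082). Cxcl16, the ligand of CXCR6, was at 11.86 and 12.15 without a stimulus and 12.55 and 12.87 with TNF and changed by 0.70 (0.48 to 0.92, adjusted p = 0.00355). The neutrophil attractants Cxcl1 and Cxcl3 and the interferon-inducible Cxcl10 and Cxcl11 did not pass the test: Cxcl1 stood at 1.24, Cxcl3 at 1.10, Cxcl10 at 0.93 and Cxcl11 at 1.05, with adjusted p from 0.221 to 0.571. Ccl1 and Cxcl16 passed with any 1 array left out. Ccl22 and Ccl17 lost the call without the unstimulated array of experiment 1 (0.095 and 0.0761), without the TNF array of experiment 1 (0.0576 and 0.0583) and without that of experiment 2 (0.0559 and 0.0628). The list held 2 to 4 calls with 1 array left out and 11 in the fit to 8 arrays, Cxcl1, Cxcl10 and Cxcl11 among them.

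Of 11 tested chemokine receptors 1 rose and 3 fell, together 36.4% beside 11.1% of all genes. Of the 11 changes 6 were above 0 and the median was 0.145, beside -0.019 for all genes. With 1 array left out 0 were called higher and 1 to 3 lower, and in the fit to 8 arrays 4 were higher and 3 lower. Ccr6, the receptor for CCL20, was at 9.91 and 10.92 without a stimulus and 8.47 and 9.71 with TNF and changed by -1.32 (-1.93 to -0.71, adjusted p = 0.0169). Ccr1 was at 12.81 and 12.69 without a stimulus and 12.28 and 12.17 with TNF and changed by -0.53 (-0.66 to -0.39, adjusted p = 0.00192), and it kept the call with any array left out. Ccr2, the receptor for CCL2 on monocytes and their descendants, showed the widest gap between experiments of these genes, at 13.01 and 10.14 without a stimulus and 11.50 and 9.28 with TNF. It fell in each experiment, although the stimulated culture of experiment 1 was brighter than the unstimulated culture of experiment 2, and its change was -1.19 (-1.62 to -0.76, adjusted p = 0.00658). Ccr9 rose by 0.32, from 7.74 and 7.45 without a stimulus to 7.99 and 7.83 with TNF, near the overall median of the arrays. Ccr9 lost the call with any of the 4 arrays left out, with an adjusted p of up to 0.155. Ccr6 and Ccr2 lost it without the unstimulated array (0.17 and 0.0692) or the TNF array of experiment 1 (0.0677 and 0.0503), and Ccr6 without the TNF array of experiment 2 (0.136).

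Inflammatory cytokine genes gave no call: 0 of 18 tested members passed in limma, beside 11.1% of all genes, 3 had an unadjusted p under 0.05, and the median change was 0.27. The 2 with the largest changes were Il1a, at 9.12 and 10.18 without a stimulus and 10.64 and 11.56 with TNF, and Il12b, the p40 subunit of interleukin-12 and interleukin-23, at 9.56 and 10.91 without a stimulus and 10.88 and 12.23 with TNF. Their changes were 1.45 (-0.24 to 3.15, adjusted p = 0.255) and 1.32 (-0.01 to 2.65, adjusted p = 0.191). Both were higher with TNF in each experiment, and both intervals held 0. Il6, at 1.28, and Il1b, at 0.94, were also not called. In the fit to 8 arrays 8 of the 18 genes were called higher and 1 lower, with adjusted p of 0.0245 for Il1a, 0.00355 for Il12b, 0.0144 for Il6 and 0.0110 for Il1b.

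Of 16 tested Th1-associated genes 2 rose and 0 fell, 12.5% beside 11.1% of all genes: Cd70, described above, and Irf8, a transcription factor of dendritic cells, at 11.69 and 12.08 without a stimulus and 12.63 and 12.90 with TNF, a change of 0.88 (0.36 to 1.41, adjusted p = 0.0431). Of 21 tested Th2-associated genes 4 rose, namely Ccl17, Ccl22, Jag1 and Pdcd1lg2, and 2 fell, the lectin Mgl2 and the transcription factor Klf4, together 28.6%. With 1 array left out the Th1 list held 0 or 1 call and the Th2 list 1 to 5, and in the fit to 8 arrays 8 and 7 members were called higher and 1 and 2 lower. Klf4 was at 11.16 and 9.93 without a stimulus and 9.68 and 9.12 with TNF and changed by -1.14 (-1.81 to -0.47, adjusted p = 0.0411), and the stimulated culture of experiment 1 was close to the unstimulated culture of experiment 2. Il4 and Il13 stood at 0.11 and 0.03 and were not called. Irf8 lost the call with any array left out, with adjusted p from 0.0637 to 0.319, and Klf4 lost it without the unstimulated array (0.32) or the TNF array of experiment 1 (0.175) or the TNF array of experiment 2 (0.182).

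Type I interferon genes showed 0 calls in limma among 25 tested members, beside 11.1% of all genes, and 1 at an unadjusted p under 0.05. All 25 had changes above 0 and the median was 0.35, beside -0.019 for all genes. Rsad2 (viperin) was at 11.46 and 10.77 without a stimulus and 12.49 and 11.61 with TNF and Ifit1 at 10.04 and 9.26 without a stimulus and 10.96 and 10.07 with TNF. Each was higher in both experiments, and the changes of 0.93 (-0.39 to 2.25, adjusted p = 0.352) and 0.87 (-0.37 to 2.11, adjusted p = 0.354) had intervals that reached below 0. The fit to 8 arrays called 13 of the 25 higher, Rsad2 and Ifit1 at adjusted p of 0.00284 and 0.00274 among them, and the fit to the 4 CA074Me arrays alone called 20. Isg15 had no probe set of its own in the annotation used here.

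The largest fall was in Cdh1, which encodes E-cadherin: it was at 11.43 and 12.30 without a stimulus and 9.12 and 10.54 with TNF and changed by -2.03 (-2.56 to -1.50, adjusted p = 0.00169). Itgae, the integrin alpha chain CD103, was at 9.63 and 11.23 without a stimulus and 7.68 and 9.62 with TNF and changed by -1.78 (-2.18 to -1.39, adjusted p = 0.00102). Experiment 2 was brighter than experiment 1 for both genes, and each fell within both experiments. Itgb7, the beta chain that pairs with CD103 to bind E-cadherin, was at 10.30 and 10.21 without a stimulus and 9.14 and 8.85 with TNF, with a wide gap between the groups, and changed by -1.26 (-1.42 to -1.09, adjusted p = 0.000258). Ctnnd2, a catenin that binds cadherin tails, was at 8.20 and 9.60 without a stimulus and 6.86 and 7.72 with TNF and changed by -1.61 (-1.995 to -1.22, adjusted p = 0.00118). All 4 genes passed with any single array left out, at adjusted p of at most 0.0274. Without the block Itgb7 kept its call (adjusted p = 0.00246), while Cdh1, Itgae and Ctnnd2, whose experiments differed in level, did not (0.42, 0.633 and 0.509).

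Over the whole integrin list 2 of 15 tested members rose and 2, the CD103 chain and beta 7, fell, together 26.7% beside 11.1% of all genes. The fit to 8 arrays called 5 higher and 4 lower. Itga4, the alpha chain that also pairs with beta 7, was at 10.14 and 9.85 without a stimulus and 10.99 and 10.68 with TNF and changed by 0.84 (0.49 to 1.18, adjusted p = 0.0109), and Itgb1 changed by 0.31 (0.13 to 0.50, adjusted p = 0.0441). Itgb8 differed more with TNF than any other member in the upward direction, at 7.79 and 7.72 without a stimulus and 9.37 and 9.55 with TNF. It was not called here but passed in the fit to 8 arrays, at an adjusted p of 0.00174. Itgax, the CD11c chain, stood at -0.02 and was not called. Itga4 lost its call without the unstimulated array of experiment 1 (0.119) or the TNF array of experiment 2 (0.113), and Itgb1 without those (0.33 and 0.197) or the TNF array of experiment 1 (0.184). With 1 array left out the list held 0 to 2 members higher and 2 or 3 lower.

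C-type lectin and scavenger receptors fell in 7 of 19 tested members and rose in 2, together 47.4% beside 11.1% of all genes. Mgl2 (CD301b), a galactose-type lectin of dendritic cells and macrophages, was at 12.33 and 12.25 without a stimulus and 10.96 and 10.63 with TNF and changed by -1.49 (-1.87 to -1.11, adjusted p = 0.00147). Its relative Clec10a (CD301a) was at 10.11 and 9.74 without a stimulus and 8.90 and 8.38 with TNF and changed by -1.29 (-1.80 to -0.77, adjusted p = 0.00954). Cd209a, a mouse relative of DC-SIGN, was at 10.04 and 8.86 without a stimulus and 8.01 and 7.63 with TNF, lower with TNF in each experiment, and changed by -1.63 (-2.44 to -0.82, adjusted p = 0.023). The groups did not overlap for any of these 3, as for 5463 of all 12172 genes. Mrc1, the mannose receptor, differed strongly between experiments, at 11.63 and 8.77 without a stimulus and 10.41 and 8.19 with TNF, and changed by -0.90 (-1.45 to -0.36, adjusted p = 0.0447). Clec4a2, Clec4a3 and Clec7a (dectin-1) fell by 0.55, 0.56 and 0.52 on the log2 scale.

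The 2 members that rose were Clec4e (mincle), a receptor for mycobacterial glycolipid, at 12.50 and 11.59 without a stimulus and 13.80 and 12.87 with TNF with a change of 1.29 (0.64 to 1.95, adjusted p = 0.0244), and Ly75 (DEC-205), which rose by 1.02. Over the list 1 member was called lower without the unstimulated array of experiment 1, 6 without that of experiment 2, 2 without the TNF array of experiment 1 and 1 without that of experiment 2. With the pairing ignored 1 was called lower. Of the lectin genes named with levels, Mgl2 passed with any array left out. The others lost the call without the unstimulated array of experiment 1, with adjusted p of 0.0998 for Clec10a, 0.216 for Cd209a, 0.341 for Mrc1 and 0.223 for Clec4e. They lost it too without the TNF array of experiment 2, at 0.107, 0.127, 0.168 and 0.206, and Cd209a, Mrc1 and Clec4e without the TNF array of experiment 1, at 0.118, 0.206 and 0.052. Of the 7 tested macrophage markers 1 fell, a share of 14.3% beside 11.1% of all genes, and it was Mrc1, which the lectin list also holds. Changes of these markers were below 0 for 6 of 7, with a median of -0.29 beside -0.019 for all genes. Their part in the lectin changes was not tested. Granulocyte, lymphocyte and mast cell or basophil markers gave 0 calls in limma among 7, 3 and 4 tested members, with 1, 1 and 0 at an unadjusted p under 0.05.

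The other large falls were in receptors and signalling enzymes of several kinds. Gpr171 was at 11.83 and 12.09 without a stimulus and 9.72 and 10.97 with TNF and changed by -1.61 (-2.22 to -0.998, adjusted p = 0.00789). Gpr34, a receptor for lysophosphatidylserine, was at 9.61 and 9.88 without a stimulus and 7.99 and 8.44 with TNF and changed by -1.52 (-2.03 to -1.02, adjusted p = 0.0046). Ptpn22, a tyrosine phosphatase of immune receptor signalling, was at 10.15 and 10.21 without a stimulus and 8.38 and 8.89 with TNF and changed by -1.54 (-2.07 to -1.01, adjusted p = 0.00533). For these 3 genes both stimulated arrays were below both unstimulated ones, and 5463 of all 12172 genes had no overlap in either direction. Tspan18, a tetraspanin, Ckb, the brain-type creatine kinase, Eps8, an actin regulator, Lifr, the receptor for leukaemia inhibitory factor, Vrk1, a nuclear kinase, Fam43a and Klk1b27 had changes from -1.51 to -1.38. Klk1b27 belongs to a family of near-identical kallikreins, so its value is uncertain. Without the unstimulated array of experiment 1 the adjusted p was 0.0949 for Gpr171, 0.0631 for Gpr34, 0.0609 for Ptpn22 and 0.069 for Eps8. Without the TNF array of experiment 2 it was 0.0615 for Gpr34 and 0.0617 for Ptpn22, and without that of experiment 1 it was 0.0606 for Gpr171. The other 6 of these genes kept the call with any array left out.

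Cell cycle and replication genes fell: 12 of 28 tested members were called lower and 0 higher, 42.9% beside 11.1% of all genes. Changes were below 0 for 27 of 28, and the median change was -0.41 beside -0.019 for all genes. Cdt1, which licenses replication origins, was at 10.49 and 10.78 without a stimulus and 9.76 and 10.19 with TNF and changed by -0.66 (-0.88 to -0.44, adjusted p = 0.0046). Tk1, a thymidine kinase of S phase, was at 9.12 and 9.27 without a stimulus and 8.46 and 8.76 with TNF and changed by -0.58 (-0.79 to -0.37, adjusted p = 0.00639). Cdk1, the mitotic kinase, was at 10.62 and 10.63 without a stimulus and 10.03 and 10.23 with TNF and changed by -0.50 (-0.67 to -0.32, adjusted p = 0.00545), and Aurkb changed by -0.55 (-0.85 to -0.25, adjusted p = 0.0329). The replicative helicase genes Mcm2, Mcm5, Mcm6 and Mcm7 fell by 0.45, 0.32, 0.49 and 0.45 on the log2 scale.

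Mki67, the proliferation marker Ki-67, stood at -0.11 and was not called. Every named member of this list lost the call without the unstimulated array of experiment 1, with adjusted p of 0.0631 for Cdt1, 0.0749 for Tk1, 0.0677 for Cdk1 and 0.258 for Aurkb. Tk1 and Aurkb lost it without the TNF array of experiment 2 as well (0.0745 and 0.206), and Aurkb without that of experiment 1 (0.11). The list then held 0 calls without the unstimulated array of experiment 1, 11 lower and 1 higher without that of experiment 2, 5 lower without the TNF array of experiment 1 and 2 lower without that of experiment 2.

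Cholesterol synthesis genes rose in 6 of 20 tested members and fell in 0, 30.0% beside 11.1% of all genes, with a median change of 0.44. Idi1, the isopentenyl diphosphate isomerase, was at 12.84 and 12.89 without a stimulus and 13.84 and 13.79 with TNF, the cultures of a group lying close together, and changed by 0.95 (0.74 to 1.17, adjusted p = 0.00102). Hmgcs1, the cytosolic HMG-CoA synthase at the entry of the pathway, was at 12.65 and 13.15 without a stimulus and 13.46 and 13.78 with TNF and changed by 0.72 (0.46 to 0.98, adjusted p = 0.00636). Fdft1, the squalene synthase, was at 11.36 and 11.85 without a stimulus and 12.05 and 12.53 with TNF and changed by 0.69 (0.41 to 0.96, adjusted p = 0.0101). Hsd17b7, which acts late in the pathway, changed by 0.72 (0.50 to 0.95, adjusted p = 0.00355), and Fdps and Cyp51 rose by 0.54 and 0.48. Srebf2, the transcription factor that drives the pathway, stood at 0.25 and Insig1, its feedback partner, at 0.15, neither of them called. Idi1 and Hsd17b7 passed with any array left out. Hmgcs1 and Fdft1 lost the call without the unstimulated array of experiment 1 (0.0766 and 0.103) or the TNF array of experiment 2 (0.0721 and 0.0957), and Fdft1 without the TNF array of experiment 1 (0.0526). The list held 2 calls without the unstimulated array of experiment 1 or the TNF array of experiment 2, 5 and 4 without the other 2, and 13 in the fit to 8 arrays.

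NRF2 and oxidative stress genes rose in 6 of 28 tested members and fell in 0, 21.4% beside 11.1% of all genes, with a median of 0.19. Slc7a11, the cystine transporter, was at 10.50 and 9.94 without a stimulus and 11.58 and 10.46 with TNF and changed by 0.80 (0.33 to 1.28, adjusted p = 0.0426). Txnrd1, a thioredoxin reductase, was at 12.91 and 12.24 without a stimulus and 13.64 and 12.79 with TNF and changed by 0.64 (0.26 to 1.02, adjusted p = 0.0442). The groups overlapped for both genes, since experiment 1 was brighter than experiment 2. Abcc1, a glutathione conjugate exporter, changed by 0.67 (0.35 to 0.99, adjusted p = 0.019), and Mt2, a metallothionein, by 0.52 (0.22 to 0.82, adjusted p = 0.0389). Hmox1 stood at 0.54 (adjusted p = 0.0661). The list held 0 calls in limma without the unstimulated array of experiment 1, without the TNF array of experiment 1 or with the pairing ignored, 1 without the unstimulated array of experiment 2 and 3 without the TNF array of experiment 2. With any 1 array left out Slc7a11 and Txnrd1 lost the call, with adjusted p of up to 0.279 and 0.253. Abcc1 lost it without either array of experiment 1 (0.0979 and 0.108) or the unstimulated one of experiment 2 (0.0924), and Mt2 without either array of experiment 1 (0.306 and 0.219).

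Stress genes of the unfolded protein and ATF4 pathways were split, with 2 of 21 tested members higher, 2 lower and a median of -0.001. The share called was 19.0% beside 11.1% of all genes. Ppp1r15a (GADD34), a phosphatase subunit induced by stress, was at 9.75 and 10.14 without a stimulus and 10.56 and 10.84 with TNF and changed by 0.76 (0.50 to 1.02, adjusted p = 0.00533). Phgdh changed by 0.49 (0.21 to 0.77, adjusted p = 0.0379), Psat1, the next enzyme of serine synthesis, by -0.34 (-0.54 to -0.14, adjusted p = 0.0429), and Sdf2l1, an endoplasmic reticulum chaperone partner, by -0.38 (-0.51 to -0.25, adjusted p = 0.00533). Hspa5 (BiP) stood at -0.0014 and was not called. Without the unstimulated array of experiment 1 the adjusted p was 0.0692 for Ppp1r15a, 0.223 for Phgdh, 0.292 for Psat1 and 0.0653 for Sdf2l1, and without the TNF array of experiment 2 it was 0.0649, 0.212, 0.144 and 0.0589, so that 0 members were called in either. Phgdh and Psat1 also lost the call without the unstimulated array of experiment 2 (0.104 and 0.0805) or the TNF array of experiment 1 (0.132 and 0.214).

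Glycolysis and hypoxia genes rose in 4 of 19 tested members and fell in 0, 21.1% beside 11.1% of all genes. All 19 changes were above 0 with a median of 0.26, beside -0.019 for all genes. Pfkfb3, which makes the activator of phosphofructokinase, was at 10.45 and 10.96 without a stimulus and 11.43 and 11.94 with TNF, with a change close to 1 in each experiment, and changed by 0.98 (0.78 to 1.19, adjusted p = 0.00102). Adm (adrenomedullin) was at 7.78 and 8.76 without a stimulus and 8.75 and 9.44 with TNF and changed by 0.82 (0.58 to 1.06, adjusted p = 0.00277). Both passed with any array left out. Egln3, a prolyl hydroxylase induced by hypoxia, was at 11.31 and 12.12 without a stimulus and 12.38 and 12.43 with TNF, so that the unstimulated culture of experiment 1 was low and the other 3 lay closer together. Its change was 0.69 (0.34 to 1.04, adjusted p = 0.0239). Hk1 was at 11.16 and 11.28 without a stimulus and 11.73 and 11.56 with TNF and changed by 0.42 (0.19 to 0.65, adjusted p = 0.032).

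The unstimulated CA074Me array of experiment 1 held the lowest mean of the 14 arrays for 7 of the 30 lists. They were glycolysis and hypoxia, cholesterol synthesis, TNF receptors and signalling, maturation, inflammatory cytokines, Th1 mediators and apoptosis. For maturation the mean was 10.84 there and 11.003 to 12.15 elsewhere, for TNF signalling 10.86 against 10.89 to 11.59, and for cholesterol synthesis 10.71 against 10.83 to 11.30. The mean over the 19 glycolysis and hypoxia genes was 11.91 on that array and between 12.21 and 12.48 on the other 13, and for 14 of the 19 genes that array held the lowest of the 14 values, as it did for 9.89% of all genes tested. Egln3 was at 11.31 there and between 12.05 and 12.45 on the other 13 arrays. The mean over all tested genes on that array, 9.571, lay within the range of 9.501 to 9.633 over the series. Without that array the list's median change was 0.16 in place of 0.26 and 2 members were called, while Egln3 and Hk1 missed the threshold at 0.154 and 0.216. Egln3 missed it as well without the TNF array of experiment 1 (0.153) or 2 (0.0716), and Hk1 without that of experiment 1 (0.193) or the unstimulated array of experiment 2 (0.0843). The part of that 1 array in the changes of these lists beyond these values was not tested.

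**Figure D3:**
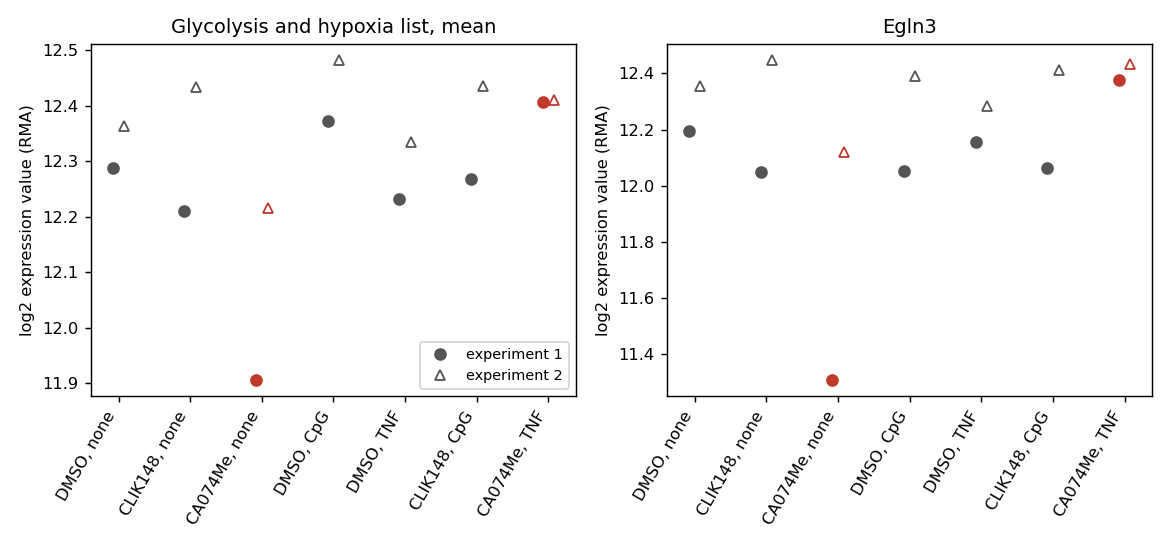
Mean log2 expression value of the 19 glycolysis and hypoxia genes (left) and of Egln3 (right) on each of the 14 arrays, with the group on the horizontal axis. Circles are experiment 1, open triangles experiment 2 and red the CA074Me groups; the unstimulated CA074Me array of experiment 1 is lowest in both panels, at 11.91 and 11.31.

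The list of the inhibitor's target family had a share of calls equal to that of all genes, 11.1%, and the lysosomal list one of 8.3%. Ctsb, which encodes cathepsin B, was at 13.76 and 13.38 without a stimulus and 13.80 and 13.44 with TNF, and its change of 0.05 (-0.14 to 0.24, adjusted p = 0.776) was not called. Ctsl, the gene of cathepsin L, was at 13.47 and 13.73 without a stimulus and 13.35 and 13.68 with TNF with a change of -0.09 (-0.30 to 0.12, adjusted p = 0.583), also not called. For both genes the gap between experiments exceeded the difference with TNF. Of 18 tested cathepsins and inhibitors 1 rose, the serpin Serpinb6b at 10.21 and 11.63 without a stimulus and 12.35 and 12.83 with TNF, and 1 fell, the endosomal aspartic protease Ctse at 11.96 and 10.99 without a stimulus and 11.50 and 10.51 with TNF, with changes of 1.67 and -0.47 (-0.73 to -0.21, adjusted p = 0.0331). Messenger RNA does not report the activity of an inhibited enzyme.

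Lysosomal genes fell in 2 of 24 tested members and rose in 0. They were Gusb, beta-glucuronidase, with a change of -0.73 (-1.06 to -0.41, adjusted p = 0.0136), and the cholesterol exporter Npc1, with -0.46 (-0.73 to -0.19, adjusted p = 0.0416). Lamp1 and Lamp2, the main lysosomal membrane proteins, stood at 0.04 and 0.01. One of 12 tested genes of MHC class II presentation fell, H2-DMa, a chain of the peptide editor DM, from 13.38 and 13.30 without a stimulus to 12.62 and 12.63 with TNF, a change of -0.72 (-1.11 to -0.34, adjusted p = 0.0302). H2-Ab1 stood at -0.08 and Cd74, the invariant chain, at -0.04, neither called. On the class I side 1 of 14 tested members rose, H2-K1, by 0.36, and it belongs to a family of near-identical genes. The shares called were 8.3% of class II and 7.1% of class I genes, beside 11.1% of all genes. Without the unstimulated array of experiment 1 all 6 calls of these lists, Serpinb6b and Ctse included, were lost, at adjusted p of 0.147 for Gusb, 0.294 for Npc1, 0.25 for H2-DMa, 0.069 for H2-K1, 0.278 for Ctse and 0.187 for Serpinb6b. Without the TNF array of experiment 2 they were at 0.134, 0.297, 0.211, 0.0718, 0.261 and 0.116. Npc1 and H2-DMa lost the call with either other array left out too (0.0746 and 0.0539 without the unstimulated array of experiment 2, 0.0576 and 0.086 without the TNF array of experiment 1), and Serpinb6b without the latter (0.104).

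Of 21 tested Toll-like receptor genes 4 rose and 1 fell, 23.8% beside 11.1% of all genes: Tlr1, a partner of TLR2, was at 8.65 and 8.84 without a stimulus and 9.90 and 10.06 with TNF and changed by 1.24 (0.88 to 1.59, adjusted p = 0.0025), while Tlr4, the receptor for lipopolysaccharide, changed by -0.44 (-0.62 to -0.26, adjusted p = 0.0108). Irak3 and Traf6 rose by 0.75 and 0.44. Of 13 tested apoptosis genes 2 rose, the survival gene Bcl2l1 (BCL-XL) at 9.66 and 9.80 without a stimulus and 10.58 and 10.71 with TNF with 0.91 (0.57 to 1.25, adjusted p = 0.00705) and the death receptor Fas with 0.68, and 1 fell, the death promoter Bid, at 9.19 and 9.40 without a stimulus and 8.64 and 8.64 with TNF with -0.65 (-0.90 to -0.41, adjusted p = 0.00722), a share of 23.1%. Of 16 matrix protease genes 2 rose, Adam19 by 0.42 and Adam17, the TNF-releasing protease, by 0.34, and Plau, urokinase, changed by -0.57 (-0.80 to -0.34, adjusted p = 0.0101), a share of 18.8%. Of 19 genes of arginine metabolism, itaconate and alternative activation 2 rose, Ptges by 0.74 and Arg2 by 0.43, and 2, Mrc1 and Klf4, fell, a share of 21.1%. Acod1 of that list was at 12.13 and 12.46 without a stimulus and 14.045 and 13.59 with TNF and was not called. In the fit to 8 arrays Acod1 passed, at an adjusted p of 0.00992. Of the 9 tested dendritic cell markers 1, Flt3, rose by 0.55, while Cd209a and Clec10a fell, a share of 33.3%, and the median was -0.041. Without the unstimulated array of experiment 1 or the TNF array of experiment 2 the Toll-like receptor list held 1 call and the apoptosis and matrix protease lists 0. Tlr1 kept its call with any array left out. The others did not, and without the TNF array of experiment 2 the adjusted p was 0.113 for Tlr4, 0.0819 for Bcl2l1, 0.0858 for Bid, 0.11 for Plau, 0.076 for Adam19, 0.111 for Adam17, 0.266 for Fas, 0.22 for Irak3, 0.078 for Traf6, 0.16 for Ptges, 0.154 for Arg2 and 0.0547 for Flt3. All of these but Arg2 and Flt3 also lost the call without the unstimulated array of experiment 1, at up to 0.329 for Fas. Without the unstimulated array of experiment 2 it was lost by Arg2 (0.0857), Flt3 (0.0535), Fas (0.0728), Irak3 (0.0622) and Adam17 (0.0655), and without the TNF array of experiment 1 by Flt3 (0.0646), Fas (0.137), Irak3 (0.161) and Adam17 (0.108).

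**Figure D4:**
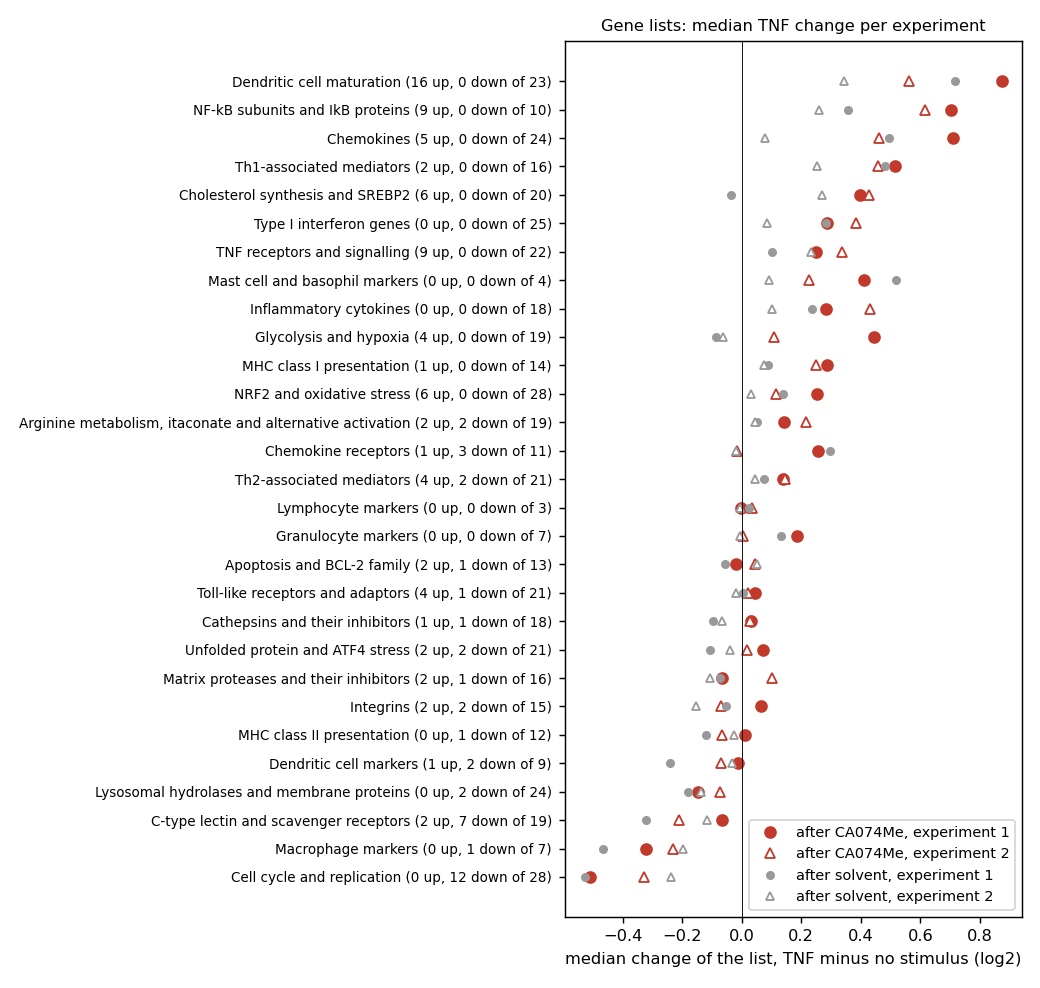
Median log2 change with TNF (horizontal axis) of each gene list with at least 3 tested members, 1 row per list. Red circles and open red triangles are experiments 1 and 2 after CA074Me and grey symbols the same after solvent, and the counts beside each name are members called higher and lower after CA074Me; rows are ordered by the overall median after CA074Me, from the cell cycle list, at -0.51 and -0.33, up to the maturation list, at 0.87 and 0.56.

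The last comparison set the TNF response after CA074Me beside that after solvent. The 2 responses share no arrays but come from the same 2 experiments. Both tests used the same estimate of spread for each gene, which favours calls of the same genes. TNF changed 379 genes after solvent, 3.11% of those tested, 139 of them upward and 240 downward. The 2 sets of changes correlated across the 12172 genes with r = 0.861 in experiment 1 and 0.819 in experiment 2. Of the 605 genes that rose after CA074Me 581 (96.03%) were above 0 after solvent and 136 (22.48%) were called there, which is 97.84% of the 139 that rose after solvent. Of the 750 that fell after CA074Me 748 (99.73%) were below 0 after solvent and 215 (28.67%) were called, which is 89.58% of the 240. The share of all genes with the same direction after both pretreatments was not counted.

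A gene called after 1 pretreatment and not after the other is not thereby shown to differ, so the difference itself was tested as an interaction. It gave 0 calls among 12172 genes, with 303 genes (2.49%) at an unadjusted p under 0.05, and its median 95% interval extended 0.29 to either side. The median of the genes that rose after CA074Me, which this choice favours, was 0.52 after CA074Me and 0.32 after solvent. For the 139 genes picked by their rise after solvent it was 0.78 after CA074Me and 0.58 after solvent. For the 240 genes that fell after solvent the medians were -0.60 after CA074Me and -0.53 after solvent. The spread of changes over all genes was an SD of 0.326 after CA074Me and 0.305 after solvent in experiment 1, and 0.283 and 0.192 in experiment 2.

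Within the NF-kB list, Relb after solvent was at 11.19 and 10.95 without a stimulus and 12.04 and 11.80 with TNF, a change of 0.86, and the change after CA074Me exceeded that by 0.38 (0.15 to 0.61). The excess was 0.41 (0.10 to 0.71) for Nfkb2 and 0.36 (0.08 to 0.64) for Bcl3, and over the 10 members its median was 0.29, with 10 of 10 above 0 and 4 at an unadjusted p under 0.05. An excess above 0 was common in other lists too: 23 of 23 maturation, 20 of 20 cholesterol synthesis and 24 of 25 interferon genes. It was seen in 5 of 11 chemokine receptors and 3 of 7 macrophage markers. The share of all genes above 0 was not counted. Unstimulated CA074Me cultures differed from unstimulated solvent cultures by -0.11 (-0.27 to 0.06) in Relb, -0.21 (-0.43 to 0.0097) in Nfkb2 and -0.29 (-0.48 to -0.088) in Bcl3. With TNF the differences were 0.28 (0.11 to 0.44), 0.20 (-0.020 to 0.42) and 0.073 (-0.13 to 0.27), and neither set passed the adjustment. For Itgb7, at 10.17 and 10.11 without a stimulus and 9.27 and 9.20 with TNF after solvent, the extra fall was -0.35 (-0.59 to -0.11). None of these passed the adjustment over all genes. For Cd40, Ccl1 and Cdh1 the differences were 0.57 (-0.50 to 1.64), 0.79 (-0.42 to 1.998) and -0.40 (-1.15 to 0.35), with intervals that held 0. Nfkb2, Bcl3, Cd40 and Cdh1 were picked by the size of their change after CA074Me, which favours a larger change there than after solvent. Relb, Itgb7 and Ccl1 met the same rule and were also set by name.

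Cholesterol synthesis genes had a median change of 0.44 after CA074Me and 0.11 after solvent, with 5 of 20 members at an unadjusted interaction p under 0.05. Fdft1, also picked by its change after CA074Me, changed by 0.20 after solvent, an excess after CA074Me of 0.49 (0.10 to 0.88). In the glycolysis and hypoxia list the medians were 0.26 and -0.11, and 11 of 19 members had an unadjusted interaction p under 0.05. For both lists the unstimulated CA074Me array of experiment 1 held the lowest mean of the 14, and Fdft1 was at 11.36 there and between 11.80 and 12.61 on the other 13. Its part in these interaction values was not tested. Cell cycle genes, by contrast, had medians of -0.41 after CA074Me and -0.42 after solvent, with 1 of 28 members under that p.

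The 5 genes with the smallest interaction p were Noct, Cav1, Pim2, Ankrd37 and P4ha2, and 0 of them passed the adjustment. Noct, the clock-regulated phosphatase nocturnin, was at 9.22 and 9.19 without a stimulus and 9.84 and 9.95 with TNF after CA074Me and at 9.49 and 9.44 without a stimulus and 9.63 and 9.60 with TNF after solvent, an excess of 0.54 (0.34 to 0.73). Cav1, the coat protein of caveolae, was at 8.71 and 9.19 without a stimulus and 9.58 and 9.80 with TNF after CA074Me and at 9.10 and 9.41 without a stimulus and 9.31 and 9.58 with TNF after solvent, an excess of 0.55 (0.32 to 0.78). P4ha2, a collagen prolyl hydroxylase, was at 7.68 and 8.26 without a stimulus and 8.38 and 8.91 with TNF after CA074Me and at 8.36 and 8.51 without a stimulus and 8.09 and 8.63 with TNF after solvent, an excess of 0.75 (0.42 to 1.08). The TNF cultures were the higher ones after CA074Me in each experiment for all 3 genes. Ankrd37, a gene induced by hypoxia, and Pim2, a survival kinase, had excesses of 0.69 (0.39 to 0.99) and 0.41 (0.23 to 0.59). The unstimulated CA074Me array of experiment 1 held the lowest of the 14 values for 4 of the 5. It was at 10.14 for Ankrd37 against 10.30 to 11.01 on the other 13 arrays, at 7.68 for P4ha2 against 8.08 to 8.91, at 8.71 for Cav1 against 8.99 to 9.80, and at 7.95 for Pim2 against 7.98 to 9.63. The part of that array in these excesses was not tested. The TNF change after CA074Me alone was called for each of the 5, and for Noct and Cav1 with any array left out. That of Pim2 lost the call with any array left out, with adjusted p from 0.0557 to 0.0905, that of Ankrd37 without either array of experiment 1 or the TNF array of experiment 2 (0.286, 0.185 and 0.118), and that of P4ha2 without the unstimulated array of experiment 1 (0.0692) or the TNF array of experiment 2 (0.0637).

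**Figure D5:**
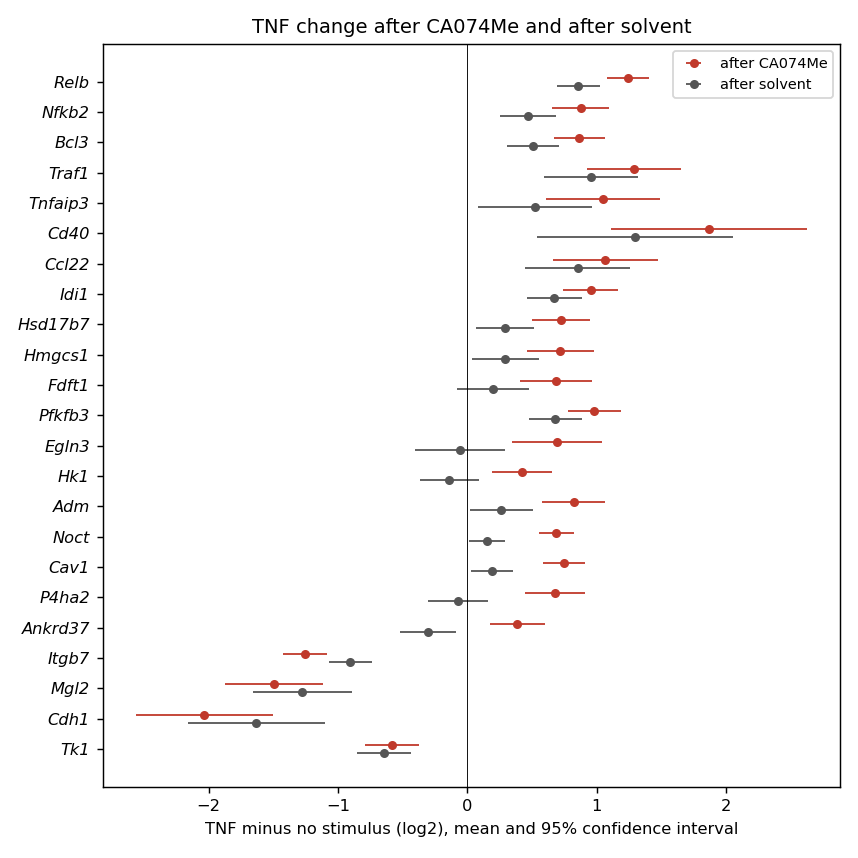
Change with TNF (horizontal axis, log2) of named genes after CA074Me (red) and after solvent (dark grey), as the fitted mean with its 95% confidence interval, 2 arrays per group. Points after CA074Me lie farther from 0 than those after solvent for every gene plotted except Tk1, and 0 of the differences passed adjustment over all genes. All genes plotted were called after CA074Me, a choice that favours larger changes there. Noct, Cav1, P4ha2 and Ankrd37 were named for their small interaction p.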

How the data were processed

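The 14 arrays measured total RNA of bone marrow-derived dendritic cells, of which 100 ng per sample was amplified and labelled for Affymetrix arrays, per the labels' protocols. The deposited log2 expression values of 45101 probe sets were made by the authors with RMA in R 3.0.1, per the submitters' processing notes. Of these, 64 were controls, 34945 carried 1 gene in the array's annotation (34741 of them found in mouse RefSeq), 932 carried several and 9160 none. The brightest probe set stood for its gene, and genes above the overall median of 7.52 on at least 2 arrays were tested.

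Groups were compared with limma 3.58.1 in R 4.3.3, with 7 groups in 1 fit over 14 arrays, a block for the experiment, 2-sided tests and 6 degrees of freedom left for the spread. The design names 2 independent experiments, and same-numbered arrays deviated together in each of the 21 pairs of groups (r between 0.424 and 0.899), so the numbers were taken to pair the arrays. With 2 arrays per group, their number limits the precision. The method was tested on simulated data.

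The comparison, its 30 gene lists and the tests were chosen with earlier results of these data known. Genes named with levels are the 15 largest rises and 15 largest falls that went the same way in both experiments, up to 4 called members of a list or otherwise its 2 largest, the 5 smallest interaction p-values and 15 genes set by name; other members of a list are given as changes and were chosen after their values were seen. Alternatives varied the block, the arrays fitted, the filter, the probe set rule, the scaling, the variance prior and array weights, and left out each array in turn.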

Additional observations from a re-analysis of the deposited data

Results flagged for a closer look

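Probe sets that the annotation ties to no single gene lie outside the comparisons above. Of 3034 such probe sets bright enough to test, 83 changed with TNF after CA074Me in limma at an adjusted p under 0.05, 39 upward and 44 downward, and 9 changed with TNF after solvent. They were not named here, and groups of 2 arrays are too small to test for outlying arrays.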

How the results depend on the processing

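The TNF response after CA074Me was 1355 genes as reported and 159 with no replicate block, so the pairing of arrays by experiment decided most calls; after solvent the counts were 379 and 14. After CA074Me and after solvent the count was 2995 and 1732 with the 8 arrays of these 4 groups, and 2651 and 1935 with array weights. It was 3560 after CA074Me with the compared groups alone, 133 when at least a 2-fold change was also asked, and 234 after solvent under reference-gene scaling. Leaving out 1 array at a time gave 235 to 830 after CA074Me, lowest without the unstimulated array of experiment 1 and equally without the TNF array of experiment 2. After solvent it gave 0 in limma without the unstimulated array of experiment 1 or 2 (1166 and 2212 genes at an unadjusted p under 0.05), 2 without the TNF array of experiment 1 and 198 without that of experiment 2. The other settings moved neither count by more than 1.5 times, and the interaction had 0 calls in limma under every setting run. Under cyclic loess 50.1% of the calls after solvent were upward, against 36.7% as reported.

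Of the 98 named genes called after CA074Me, 31 kept the call whichever array was left out and 23 kept it without the block. In the other settings 79 kept it throughout. The 19 that lost it in some were Ccr2, Ccr9, Irf8, Slc7a11, Txnrd1, Ctse, Aurkb, Hk1, Phgdh, Psat1, Itgb1, Irak3, Traf6, Fas, Adam17, Mrc1, Pim2, Ankrd37 and Tnfrsf1b, 13 of them with a gene's probe sets averaged and 9 under reference-gene scaling. The changes that turned sign were of genes not called. Dcn was at 0.0702 with the mean of probe sets, 0.0021 under cyclic loess and -0.0582 to 0.0538 with 1 array left out. Ctsb was at -0.0635 with the mean of probe sets and -0.0297 to 0.1239 with 1 array left out, and Ltf at -0.5132 to 0.0124. The causes were not tested.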
